A study of Homo sapiens with 18 samples.

Results

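TRAFD1 (TRAF-type zinc finger domain containing 1) and 8 genes of the TRAF adaptor family were followed in THP-1 cells, a human acute monocytic leukaemia line, with and without silencing of TRAFD1. The 9 genes were chosen by symbol, as TRAFD1, TRAF-named genes and adaptors that bind them, with earlier results of these data known: TRAFD1, TRAF1, TRAF2, TRAF3, TRAF4, TRAF5, TRAF6, TANK and TRAF3IP2. All 9 of 9 were found by Ensembl identifier among the 63677 genes of the count table, and all 9 were among the 16678 genes that passed the filter on low counts. The question was whether TRAF genes changed when TRAFD1 was silenced.

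The 18 libraries fell into 6 groups of 3. KD cells received an siRNA against TRAFD1 at 25 nM, SCR cells a non-targeting siRNA, and WT cells no siRNA. The protocol gives the WT cells transfection mix alone and the sample labels call them untreated, so whether they met the transfection reagent is not settled by the labels. After 72 h the cells received LPS, a bacterial cell wall lipopolysaccharide, at 10 ng/ml or medium alone (unstimulated) for 4 h, as the labels give it, while a supplement of the study gives a different time. All groups are cultures of the same line, treated in triplicate, and replicates are numbered 1 to 3 without LPS and 4 to 6 with it. Nothing in the labels says that the triplicates were grown as separate cultures, so p-values measure the spread between these libraries, which may be technical.

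TRAF proteins sit on the inner side of cytokine and pattern-recognition receptors and link them to kinases that activate NF-kB, MAP kinases and interferon regulatory factors. Most of them carry a RING domain and attach ubiquitin chains, on which downstream kinases assemble. In monocytes, TRAF6 relays Toll-like and interleukin-1 receptor signals, TRAF2 relays tumour necrosis factor receptor signals, and TRAF3 restrains the non-canonical NF-kB pathway and supports type I interferon production. TRAFD1, also called FLN29, shares a TRAF-type zinc finger with this family and has been described as a negative feedback regulator of Toll-like receptor signalling.

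The siRNA target is shown because it marks the 1 of the 9 genes that the siRNA was designed to match. It lies in TRAFD1 (ENSG00000135148, chromosome 12, 112563342 to 112591408, plus strand, GRCh37), at chr12:112589676-112589696 on the plus strand. This is coding sequence in exon 10 of 12 of the canonical transcript, and the 21 bases occur in 2 of the 9 annotated TRAFD1 transcripts. The best ungapped match of these 21 bases in the transcripts of each other gene had 7 to 9 mismatches. Only matches over the full length were searched, so an effect of the siRNA on other genes through shorter matches was not tested. The TRAFD1 site and the best matches in TRAF4, TANK and TRAF3IP2, of which the first pair are described most closely below and the last had the fewest mismatches, are written 5′ to 3′ on the sense strand, with each mismatch to the target in capitals.
TRAFD1: cccagccgacccattaacaat
TRAF4: ccTaTccgCTGcatCCacaGt
TANK: cTcagTTCCTccTttaacaTt
TRAF3IP2: cTcagAGgacAAattTacaTt
TRAF4 and TANK had 8 mismatches each and TRAF3IP2 had 7. The sequence of the non-targeting siRNA was not disclosed.

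Expression was read from the 3′ ends of polyadenylated RNA, and counts are given per 1000000 counts of the library after TMM scaling (CPM). At most 500 bases were counted per gene, so CPM are not divided by gene length. Library totals ran from 8206023 to 22344279 counts, and the 3 counts that a count of 0 allows correspond to 0.133 to 0.378 CPM, for counting error only. All 8 genes examined as monocytic markers (SPI1, LYZ, CD33, ITGAM, CSF1R, CD14, FCGR1A and PTPRC) were present, with a summed level of 688 to 807 CPM. FCGR1A (249 to 342 CPM) and PTPRC (199 to 311 CPM) made the largest parts of that sum, and PTPRC is not specific to monocytes. The T cell (CD3D, CD3E, CD2) and epithelial (EPCAM, KRT19) markers stayed under 1 CPM in every library. The LPS labels held, since TNF, IL1B and NFKBIA were higher with LPS in each condition (edgeR log2 fold changes of 1.40 to 4.90).

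TRAFD1 RNA was lower in KD than in SCR without LPS, and the difference with LPS did not pass the test. Without LPS the 3 WT libraries had 22.2, 21.2 and 18.3 CPM, the 3 SCR libraries 26.8, 20.1 and 24.3 CPM, and the 3 KD libraries 11.6, 5.37 and 9.02 CPM. Every KD library lay below every control library, and KD replicate 2 was the lowest of all. The log2 fold change of KD against SCR was -1.45 (edgeR quasi-likelihood test, SE 0.23, adjusted p = 0.0277), 63.3% lower, and against WT it was -1.23 (edgeR, SE 0.23, adjusted p = 0.00156). TRAFD1 was also the 1 gene of 9 called in KD against WT without LPS, where 11.7% of all genes were called. The KD against SCR call was lost without SCR replicate 1, SCR replicate 3 or KD replicate 2, with log2 fold changes from -1.72 to -1.20 over the 6 libraries left out in turn, and with edgeR on these 6 libraries alone (-1.41, adjusted p = 0.0847). An exact permutation test of 3 against 3 libraries cannot go below p = 0.1, so calls rest on the model across all genes.

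With LPS, TRAFD1 was at 21.9, 27.5 and 18.7 CPM in SCR and at 15.8, 14.0 and 13.8 CPM in KD. WT had 19.2, 20.3 and 11.6 CPM, so KD lay below all SCR libraries but overlapped WT, whose replicate 6 was the lowest of the 9. The log2 fold change was -0.65 against SCR (edgeR, SE 0.22, adjusted p = 0.262) and -0.23 against WT (edgeR, SE 0.23, adjusted p = 0.563). The level of TRAFD1 rose with LPS in KD (log2 fold change 0.73, edgeR, SE 0.23, adjusted p = 0.0456). That call was lost in 5 of the 6 fits with 1 library left out, with log2 fold changes of 0.49 to 0.77 in those 5, and was kept without KD replicate 1. It was also lost on the 6 KD libraries alone, with edgeR (0.73, adjusted p = 0.131) and DESeq2 (0.73, adjusted p = 0.0887). In SCR (-0.07, SE 0.22) and WT (-0.27, SE 0.22) the log2 fold change with LPS did not pass the test. The LPS responses of KD and SCR differed by 0.80 on the log2 scale (edgeR, SE 0.32, adjusted p = 0.612), which did not pass the test of the difference.

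**Figure D1:**
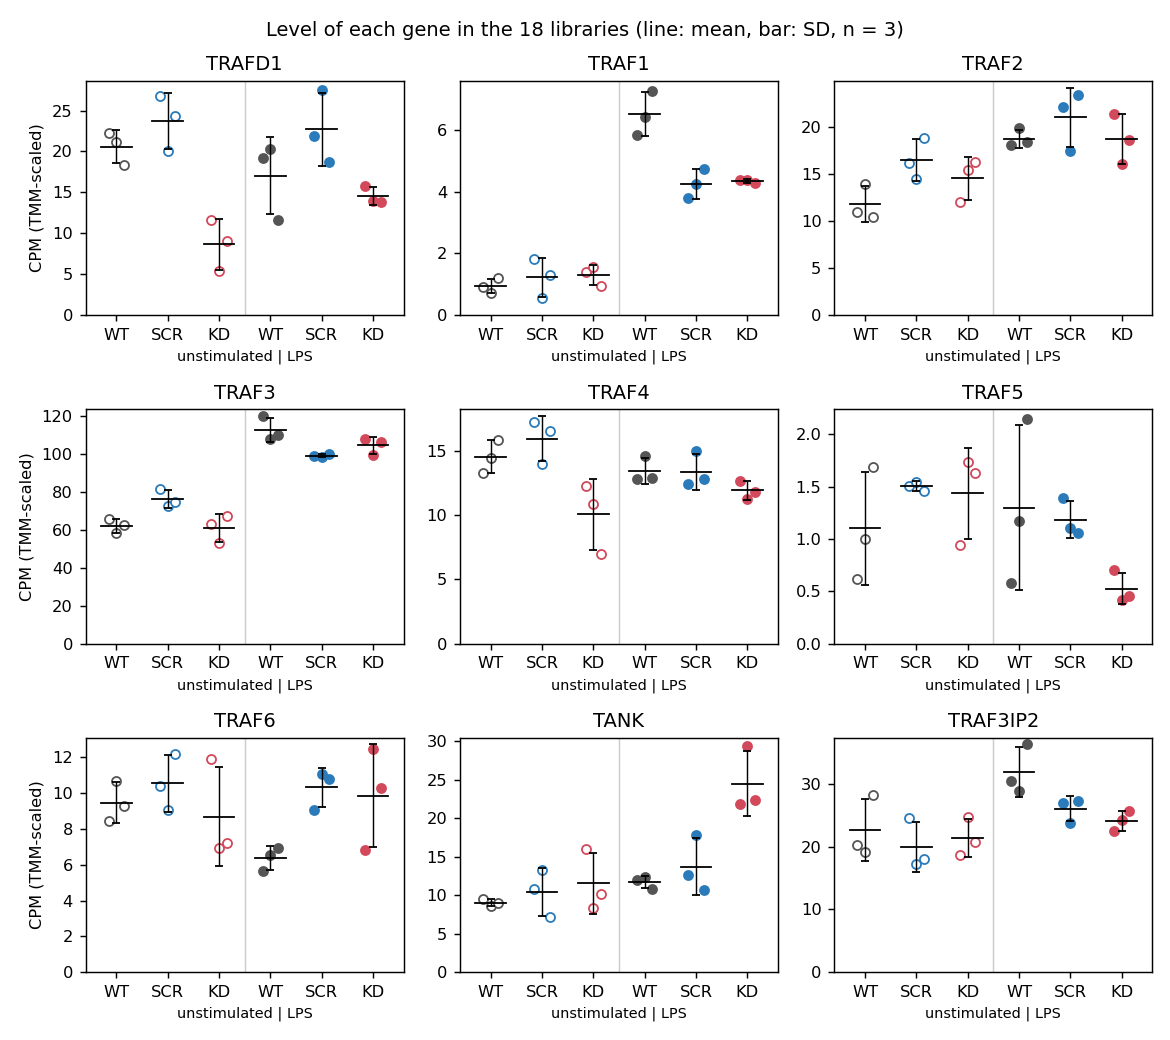
Level of each of the 9 genes in CPM (TMM-scaled) in the 18 libraries; each point is 1 library, open without and filled with LPS, in WT (grey), SCR (blue) and KD (red), and lines and bars give the mean and SD of 3. TRAFD1 is lowest in unstimulated KD (mean 8.67 CPM), TANK is highest in KD with LPS (mean 24.5 CPM), and TRAF1 and TRAF3 are higher with LPS in each condition.

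Of the 8 other genes, none passed the test between KD and SCR in either state. Without LPS, TRAFD1 was the 1 gene of 9 called, against 0.066% of all genes tested, and with LPS 0 of 9 were called, against 0% of all genes. By unadjusted p under 0.05 there were 3 of 9 in each state, against 12.6% of all genes without LPS and 11.8% with LPS. These were TRAFD1, TRAF3 and TRAF4 without LPS, and TRAFD1, TRAF5 and TANK with LPS. DESeq2 called 2 of the 9 without LPS (TRAFD1 and TRAF4), against 1.31% of all genes, and 0 with LPS, against 0.516%. TRAFD1 is the siRNA target, so its place in these counts was intended and does not describe the other genes. The median log2 fold change of the 8 genes other than TRAFD1 was -0.13 without and -0.08 with LPS, beside -0.01 and 0.02 over all genes tested.

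TRAF4, a RING-type family member also known for roles in epithelial cells and development, was the gene called by DESeq2 alone. It had 17.3, 14.0 and 16.6 CPM in unstimulated SCR and 12.3, 10.9 and 7 CPM in unstimulated KD. All 3 KD libraries lay below all 3 SCR libraries and below the WT libraries at 13.3, 14.5 and 15.9 CPM. The log2 fold change of KD was -0.67 against SCR (edgeR, SE 0.18, adjusted p = 0.103) and -0.53 against WT (edgeR, SE 0.18, adjusted p = 0.0524). DESeq2 on the same genes gave -0.66 against SCR (adjusted p = 0.0379) and -0.52 against WT (adjusted p = 0.0380). Of the 6 alternative fits of each comparison to all its libraries, this was the only 1 that called TRAF4. With 1 library left out, edgeR called TRAF4 in 0 of 6 fits against SCR and in 1 of 6 against WT. With LPS TRAF4 stood at 11.9 ± 0.702 CPM in KD, 13.4 ± 1.42 in SCR and 13.5 ± 1.00 in WT (SD, n = 3 each), and KD and SCR overlapped.

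TRAF3, without LPS, had 81.4, 72.4 and 74.6 CPM in SCR and 63.0, 52.9 and 67.2 CPM in KD. The KD libraries lay below the SCR libraries and overlapped WT, at 65.7, 58.1 and 62.3 CPM, with 1 KD library below and 1 above all WT libraries. KD differed by a log2 fold change of -0.32 from SCR (edgeR, SE 0.10, adjusted p = 0.167) and of -0.03 from WT (edgeR, SE 0.10, adjusted p = 0.908). SCR itself lay above WT by 0.30 (edgeR, SE 0.10, adjusted p = 0.102). TRAFD1 (the siRNA target), TRAF3 and TRAF4 were the 3 of 9 genes whose KD and SCR libraries did not overlap without LPS, against 15.1% of all genes.

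TANK, an adaptor that binds TRAF proteins and the kinases TBK1 and IKK-epsilon, had its highest level in KD with LPS. There the 3 libraries had 21.8, 29.3 and 22.3 CPM, against 12.6, 17.8 and 10.6 CPM in SCR and 11.9, 12.3 and 10.8 CPM in WT. Every KD library lay above every control library. The log2 fold change of KD was 1.07 against WT (edgeR, SE 0.24, adjusted p = 0.00823), the 1 call among the 9 genes in that comparison, where 10.8% of all genes were called. Against SCR it was 0.84 (SE 0.23), 1.79-fold, with an edgeR adjusted p of 0.201 in a comparison in which no gene was called.

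The TANK difference between KD and SCR with LPS passed 0.05 in 3 other fits, among them edgeR without the filter on low counts (log2 fold change 0.83, adjusted p = 0.00498, with 1.25% of all genes called) and DESeq2 on these 6 libraries alone (0.84, adjusted p = 0.00379, 7.18% of genes called). With each of the 6 libraries left out in turn it ran from 0.68 to 1.09 and did not pass the test (edgeR adjusted p from 0.103 to 0.667). The call against WT was lost without WT replicate 6 (1.02, edgeR adjusted p = 0.0514) or KD replicate 5 (0.92, edgeR adjusted p = 0.0508). Without LPS the TANK libraries of SCR, at 10.8, 13.3 and 7.16 CPM, and of KD, at 16.0, 8.34 and 10.2 CPM, overlapped (log2 fold change 0.16, SE 0.24).

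TRAF5, which acts with TRAF2 downstream of several tumour necrosis factor receptors, was the third gene whose KD and SCR libraries were apart with LPS. It had 1.39, 1.11 and 1.06 CPM in SCR and 0.699, 0.420 and 0.457 CPM in KD, from 6 to 8 counts in each KD library. The WT libraries, at 0.584, 1.17 and 2.15 CPM, overlapped both. KD against SCR gave a log2 fold change of -1.17 (edgeR, SE 0.54, adjusted p = 0.405). TRAFD1 (the siRNA target), TANK and TRAF5 made 3 of 9 genes without overlap between KD and SCR with LPS, against 21.5% of all genes.

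TRAF1, TRAF2, TRAF6 and TRAF3IP2 overlapped between KD and SCR in both states. TRAF2 had log2 fold changes of -0.18 and -0.17 (SE 0.17 and 0.17) without and with LPS, and TRAF6 -0.28 and -0.06 (SE 0.23 and 0.23). TRAF3IP2, the adaptor of the interleukin-17 receptor also called Act1, had 0.09 and -0.11 (SE 0.17 and 0.17). TRAF1, a family member without a RING domain, had 0.02 in both states, with an SE of 0.36 without LPS and 0.30 with it. Against WT with LPS, TRAF3IP2 had 22.5, 24.2 and 25.6 CPM in KD and 30.5, 28.8 and 36.3 CPM in WT, with no overlap. That log2 fold change of -0.40 (edgeR, SE 0.16, adjusted p = 0.121) passed 0.05 with the 6 libraries alone by edgeR (-0.43, adjusted p = 0.0253) and by DESeq2 (-0.42, adjusted p = 0.0350). TRAF3IP2 in SCR, at 27.0, 23.7 and 27.3 CPM, also lay below WT.

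**Figure D2:**
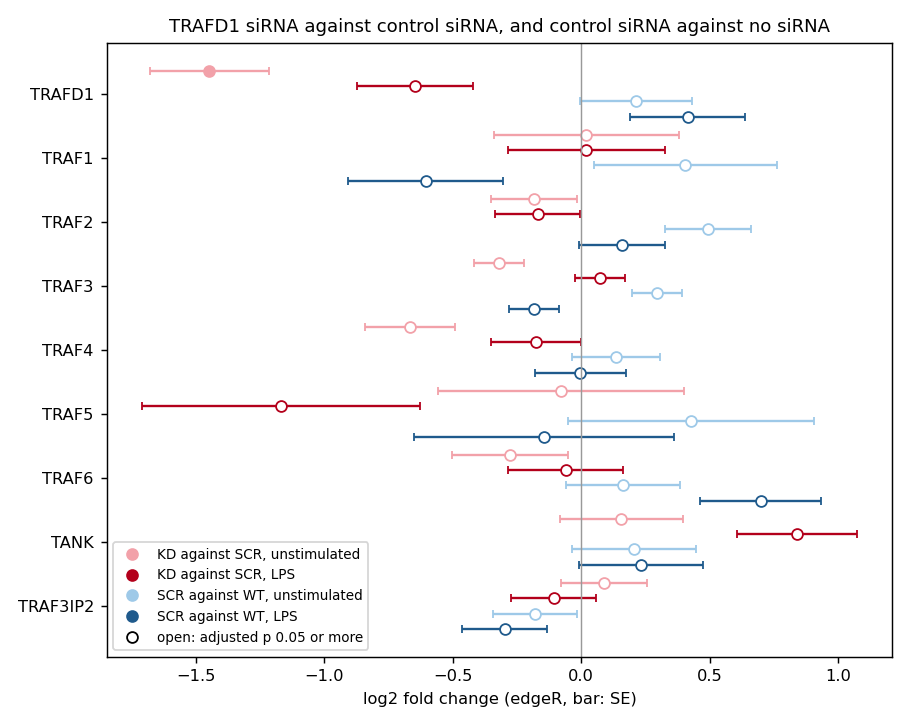
Log2 fold changes (edgeR, all 18 libraries) of the 9 genes for KD against SCR (light and dark red, without and with LPS) and SCR against WT (light and dark blue); bars are SE, and open symbols have an adjusted p of 0.05 or more. Only TRAFD1 in KD against SCR without LPS (-1.45) has a filled symbol, and TANK with LPS (0.84) is the highest point.

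The same 9 genes were compared between the control siRNA and no siRNA. SCR and WT libraries did not overlap for 2 of 9 genes without LPS (TRAF2 and TRAF3). With LPS they did not overlap for 4 of 9 (TRAF1, TRAF3, TRAF6 and TRAF3IP2). The share of all genes without overlap is not given for SCR against WT, so these counts have no background. None of the 9 genes passed the test in SCR against WT in either state, while 3.23% of all genes did without LPS and 0.114% with LPS. DESeq2 also called 0 of the 9 in either state, against 5.26% of all genes without LPS and 0.947% with LPS. Unadjusted p under 0.05 was reached by 2 of 9 genes without LPS, against 17.2% of all genes, and by 1 of 9 with LPS, against 13.7%. TRAF2 without LPS lay at 16.2, 14.5 and 18.9 CPM in SCR and 11, 14.0 and 10.5 CPM in WT, with no overlap (log2 fold change 0.49, edgeR, SE 0.17, adjusted p = 0.112). TRAF6 with LPS lay at 9.08, 11.1 and 10.8 CPM in SCR and at 5.64, 6.52 and 6.95 CPM in WT, again apart (0.70, edgeR, SE 0.24, adjusted p = 0.222).

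In SCR against WT with LPS, deviations of same-numbered libraries from their group means correlated at 0.163 to 0.261. The labels do not say that equal numbers pair libraries. The fit with the replicate number as a block called TRAF6, with a log2 fold change of 0.67 (edgeR adjusted p = 0.0348). This was 1 of 9 genes, against 8.66% of the genes in that fit. TRAF6 in KD with LPS had 6.82, 12.5 and 10.3 CPM and overlapped both controls. KD against WT with LPS gave 0.64 (edgeR, SE 0.23, adjusted p = 0.0837). The comparisons of KD with SCR and of SCR with WT share the SCR libraries, and those of KD with either control share the KD libraries.

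With LPS, every one of the 9 genes that was called was higher. Past the threshold were 3 of 9 genes in WT (TRAF1, TRAF2 and TRAF3), 2 of 9 in SCR (TRAF1 and TRAF3) and 4 of 9 in KD (TRAF1, TRAF3, TANK and TRAFD1). The shares of all genes called higher were 7.01%, 8.64% and 6.41%, and of all genes called in either direction 14.3%, 17.2% and 11.5%. None of the 9 was called lower with LPS in any condition.

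TRAF1, itself a known NF-kB target that modulates TRAF2 signalling, had the largest log2 fold changes. WT went from 0.904, 0.726 and 1.20 CPM to 5.84, 6.43 and 7.25 CPM. SCR went from 1.82, 0.548 and 1.31 CPM to 3.78, 4.24 and 4.75 CPM, and KD from 1.41, 1.57 and 0.933 CPM to 4.37, 4.38 and 4.27 CPM. All stimulated libraries lay above all unstimulated ones, and with LPS the WT libraries lay above all SCR and KD libraries. The log2 fold change was 2.74 in WT (edgeR, SE 0.34, adjusted p = 4.53e-06), 1.73 in SCR (edgeR, SE 0.33, adjusted p = 0.000977) and 1.73 in KD (edgeR, SE 0.33, adjusted p = 0.00139). The response of SCR was lower than that of WT by 1.01 on the log2 scale (SE 0.47), and that difference did not pass the test (edgeR adjusted p = 0.487).

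TRAF3 reached 120, 108 and 110 CPM with LPS in WT, 99, 98.3 and 100 CPM in SCR and 108, 99.5 and 106 CPM in KD. These levels lay above the unstimulated libraries of the same condition throughout. The log2 fold change was 0.86 in WT (edgeR, SE 0.10, adjusted p = 1.61e-06), 0.38 in SCR (edgeR, SE 0.10, adjusted p = 0.00944) and 0.77 in KD (edgeR, SE 0.10, adjusted p = 1.18e-05). The response of SCR differed from that of WT by -0.48 (edgeR, SE 0.14, adjusted p = 0.279) and that of KD from that of SCR by 0.39 (edgeR, SE 0.14, adjusted p = 0.603). Unstimulated SCR started from a higher TRAF3 level, 76.2 ± 4.68 CPM, than WT at 62.1 ± 3.81 or KD at 61.0 ± 7.35 (SD, n = 3 each).

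TANK rose with LPS in KD (log2 fold change 1.08, edgeR, SE 0.23, adjusted p = 0.00405). Its log2 fold changes in WT (0.37, SE 0.24) and SCR (0.40, SE 0.24) did not pass the test. The difference between the responses of KD and SCR was 0.68 (edgeR, SE 0.33, adjusted p = 0.653) and did not pass either. TANK in unstimulated KD was higher in replicate 1 (16.0 CPM) than in replicates 2 and 3 (8.34 and 10.2 CPM).

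TRAF2 rose in WT from 11, 14.0 and 10.5 CPM to 18.1, 19.9 and 18.4 CPM (log2 fold change 0.68, edgeR, SE 0.17, adjusted p = 0.00825), a call lost without unstimulated WT replicate 3 (0.60, edgeR adjusted p = 0.0534). In SCR (0.35, SE 0.17) and KD (0.36, SE 0.17) it did not pass the test and the groups overlapped. TRAF3IP2 in WT had a log2 fold change of 0.49 (edgeR, SE 0.16, adjusted p = 0.0511) and passed with DESeq2 (0.51, adjusted p = 0.0328). TRAF5 in KD went from 0.940, 1.74 and 1.63 CPM to the 3 low values above (-1.45, edgeR, SE 0.53, adjusted p = 0.0816).

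TRAF6, the family member closest to Toll-like receptor 4, did not pass the test with LPS in any condition. Its level in WT lay within 8.42 to 10.7 CPM without LPS and 5.64 to 6.95 CPM with it (log2 fold change -0.57, edgeR, SE 0.23, adjusted p = 0.117). In SCR (-0.03, SE 0.22) and KD (0.19, SE 0.23) the values with and without LPS overlapped. TRAF4 had log2 fold changes of -0.11, -0.25 and 0.24 in WT, SCR and KD (SE 0.17, 0.17 and 0.18) and overlapped in all 3 conditions.

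**Figure D3:**
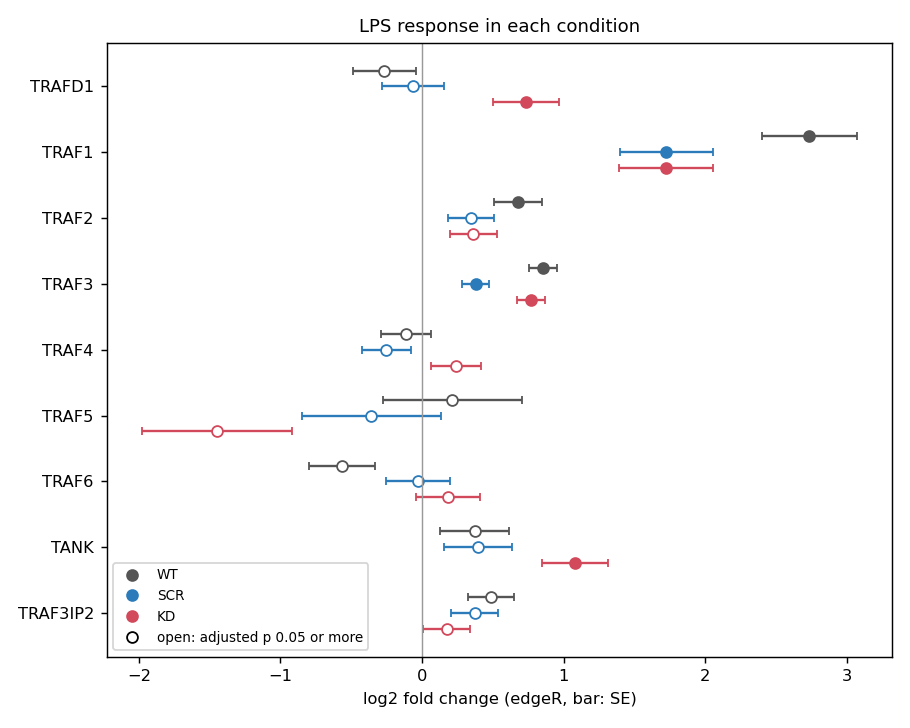
Log2 fold changes with LPS (edgeR) of the 9 genes in WT (grey), SCR (blue) and KD (red); bars are SE, and open symbols have an adjusted p of 0.05 or more. TRAF1 (1.73 to 2.74) and TRAF3 (0.38 to 0.86) are filled in each condition, and TANK (1.08) and TRAFD1 (0.73) in KD alone, where the difference from SCR did not pass its own test.

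No test of a difference between LPS responses was passed by any of the 9 genes. The background was 0% of all genes for KD against SCR, 0.36% for KD against WT and 0.234% for SCR against WT. Unadjusted p under 0.05 was reached by 2, 5 and 2 of the 9 genes, against 7.64%, 15.5% and 9.96% of all genes, and DESeq2 called 0 of 9 in each, against 0.018%, 1.27% and 0.51% of all genes. TRAFD1, the siRNA target, was among the 2 for KD against SCR and the 5 for KD against WT. For KD against WT the count of genes called rose to 3 without unstimulated KD replicate 1, when TRAFD1 (1.28, edgeR adjusted p = 0.0187), TRAF6 (1.05, edgeR adjusted p = 0.0392) and TANK (1.03, edgeR adjusted p = 0.0471) passed. The share of all genes called in that fit is not given here, so this count has no background. Among the unstimulated KD libraries, replicate 1 held the highest value of TRAFD1, TRAF4, TRAF6 and TANK and the lowest of TRAF2, TRAF5 and TRAF3IP2.

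Within each group, TRAF3 had the highest CPM of the 9 genes, and its libraries lay above those of the next gene in all 6 groups. In unstimulated WT the order of means was TRAF3, TRAF3IP2, TRAFD1, TRAF4, TRAF2, TRAF6, TANK, TRAF5 and TRAF1. There TRAF3IP2 and TRAFD1 overlapped, as did the neighbours from TRAF4 through TANK, and TRAF5 overlapped TRAF1 at about 1 CPM. TRAFD1 ranked seventh in unstimulated KD, where it overlapped the next higher gene, TRAF6. TANK ranked seventh in unstimulated WT and SCR, and second in KD with LPS, where it overlapped TRAF3IP2.

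The expression pattern of single genes was most like that of TRAFD1, over the 18 libraries and by Pearson correlation of log2 CPM, for BTBD10 (r = 0.900), U2AF1 (r = 0.874) and EED (r = 0.868). Among 15239 genes with a symbol, TRAF1 was followed most closely by BID (r = 0.962), ZC3H12A (r = 0.959) and TRIM16 (r = 0.953). TRAF3 was followed by SLAMF7 (r = 0.964), TANK by BTN2A1 (r = 0.920), TRAF2 by PDRG1 (r = 0.907) and TRAF3IP2 by FGD2 (r = 0.894). The highest values for TRAF5 (RNASEH2A, r = 0.833), TRAF4 (UBE2V2, r = 0.800) and TRAF6 (NCKAP1, r = 0.797) were lower. These values are descriptions, picked as the highest of many, and the libraries behind them share groups and treatment.

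The wider pathway was examined in 5 lists of 80 genes, of which 70 were tested: other TRAF-named genes, receptors that recruit TRAF proteins, ubiquitin enzymes and adaptors, kinases downstream, and partners of TANK and TRAF3. Of the 10 not tested, 4 had identifiers at 0 counts in every library. For IKBKG, IKBKE and OTUD7B among those 4, no table used here gives a second identifier, so these genes were not analysed. In KD against SCR, 0 of the 70 passed the edgeR test in either state, with 12 at an unadjusted p under 0.05 without LPS, against 12.6% of all genes, and 8 with LPS, against 11.8%. DESeq2 called 1 without LPS, BIRC2, a ubiquitin ligase bound by TRAF2 (log2 fold change -0.31, adjusted p = 0.0428), against 1.31% of all genes, and 0 with LPS, against 0.516%. The median log2 fold change of the 70 genes was -0.09 without LPS and -0.01 with LPS. In SCR against WT, edgeR called 6 higher and 1 lower without LPS (10%, beside 3.23% of all genes), and 0 with LPS (beside 0.114%). In KD against WT it called 6 higher and 10 lower without LPS (22.9%, beside 11.7%), and 3 higher and 7 lower with LPS (14.3%, beside 10.8%).

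With LPS in SCR, 17 of the 70 list genes rose and 6 fell (32.9%), where 8.64% of all genes were called higher and 17.2% in either direction. In WT 16 rose and 12 fell (40%, beside 14.3% of all genes), and in KD 20 rose and 7 fell (38.6%, beside 11.5%). The lists were written with earlier results of these data known, so these shares are descriptions and no set test was run. Among ubiquitin enzymes and adaptors in SCR, 8 of 25 rose and 1 fell (36%). ZC3H12A, an RNase that degrades inflammatory transcripts, went from 26.1 ± 4.12 to 168 ± 10.4 CPM, and TNFAIP3, the ubiquitin-editing enzyme A20, from 24.7 ± 2.27 to 145 ± 10.6 CPM (SD, n = 3 each). RBCK1, a subunit of the linear ubiquitin ligase, fell by 0.54 on the log2 scale (edgeR, SE 0.11, adjusted p = 0.00187).

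Of the partners of TANK and TRAF3, 4 of 9 rose and 1 fell (55.6%). NFKB2 and RELB, the subunits of non-canonical NF-kB, rose by 1.10 (SE 0.13) and 0.71 (SE 0.17), and STING1, the adaptor of cytosolic DNA sensing, fell by 0.49 (SE 0.12). Of the kinases, 2 of 18 rose (MAP3K5, 0.68, SE 0.22, and MAP2K3, 0.56, SE 0.13) and 2 fell (MAP3K3, -0.51, SE 0.16, and IKBKB, -0.39, SE 0.10), 22.2% beside the 17.2% of all genes.

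Of the receptors, 3 of 13 rose and 1 fell (30.8%). IL18R1 had 0 counts in the unstimulated SCR libraries and 0.951 ± 0.584 CPM with LPS, and TNFRSF9 went from 0.148 ± 0.257 to 1.39 ± 0.217 CPM, so both started at or near the limit of detection (SD, n = 3 each). TLR4, the LPS receptor, fell by 0.73 in SCR (edgeR, SE 0.23, adjusted p = 0.0317) and by 1.08 in WT (edgeR, SE 0.22, adjusted p = 0.00188). In KD its log2 fold change was 0.0053 (edgeR, SE 0.23, adjusted p = 0.992). Without LPS, TLR4 was at 15.3 ± 4.09 CPM in WT, 10.3 ± 1.28 in SCR and 7.9 ± 0.25 in KD. With LPS it was at 7.28 ± 1.36, 6.14 ± 1.79 and 7.89 ± 1.55 CPM (SD, n = 3 each). Without LPS, KD was lower than WT (-0.96, edgeR, SE 0.22, adjusted p = 0.00697). KD against SCR did not pass the test (-0.38, edgeR, SE 0.22, adjusted p = 0.502), and neither did SCR against WT (-0.58, edgeR, SE 0.22, adjusted p = 0.149). The difference between the TLR4 responses of KD and SCR (0.73, edgeR, SE 0.32, adjusted p = 0.632) and of KD and WT (1.09, edgeR, SE 0.32, adjusted p = 0.145) did not pass the test. Of the other TRAF-named genes, 0 of 5 rose and 1 fell (20%, beside 17.2% of all genes), TRAF3IP3, from 118 ± 8.41 to 76.9 ± 1.64 CPM (SD, n = 3 each). In KD its level was 99 ± 4.21 CPM without LPS and 74.3 ± 2.63 CPM with it, and in WT 169 ± 8.73 and 101 ± 10.4 CPM. Without LPS, TRAF3IP3 did not pass the test in KD against SCR (-0.25, edgeR, SE 0.09, adjusted p = 0.251). It was lower in SCR than in WT (-0.52, edgeR, SE 0.09, adjusted p = 0.00309).

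**Figure D4:**
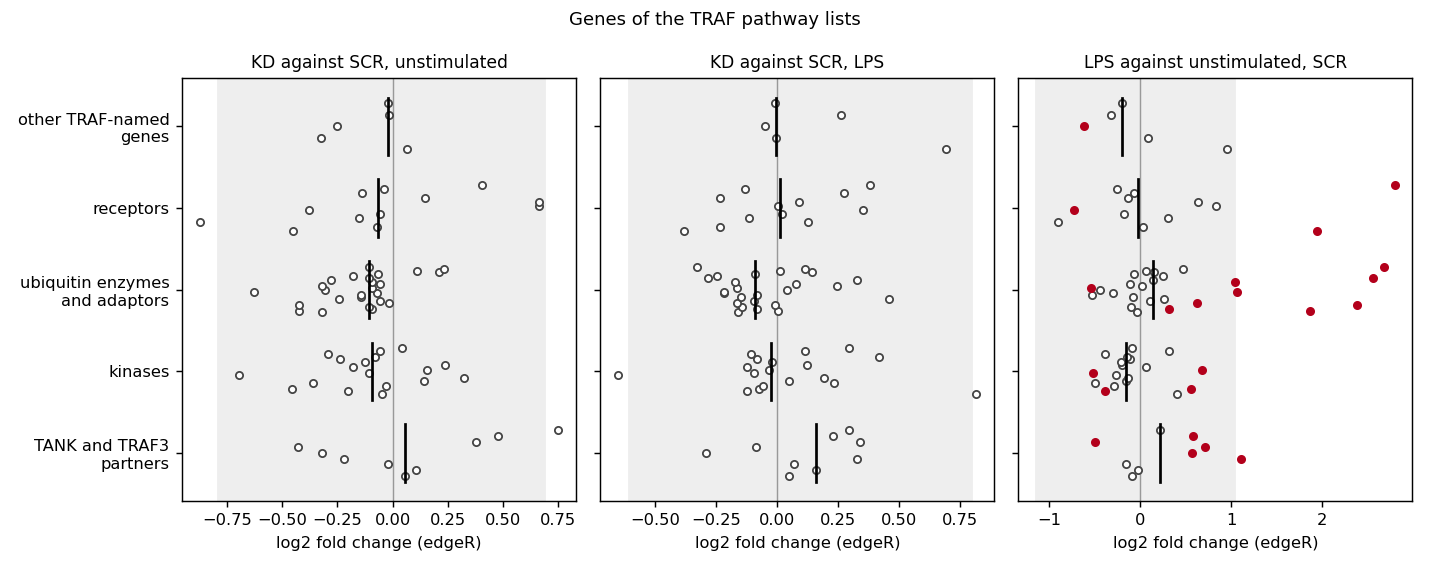
Log2 fold changes (edgeR) of the genes tested in the 5 pathway lists for KD against SCR without and with LPS and for LPS in SCR; each point is 1 gene (IL18R1, at 0 counts in unstimulated SCR, is not drawn), red with an adjusted p under 0.05, black lines are medians of the points drawn, each panel has its own scale, and the grey band is the 5th to 95th percentile of all genes tested. No point is red in either comparison of KD with SCR, and TNFRSF9, ZC3H12A and TNFAIP3 are the points farthest to the right with LPS.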

How the data were processed

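Per the study's methods, QuantSeq 3′ reads from THP-1 RNA were trimmed and aligned with HISAT to GRCh37 (Ensembl annotation). The authors counted reads with featureCounts on gene models cut to 500 bases at one end of each gene, and deposited raw counts per Ensembl gene, without normalization. The strand setting is not given in the sources used here. TANK and TRAF3IP2 have genes on the opposite strand in these bases: PSMD14-DT, at 0 counts, and TRAF3IP2-AS1, with 1066 counts over 18 libraries.

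Symbols, the siRNA site and overlaps came from GENCODE (version 44, lifted to GRCh37) and the GRCh37 genome. Genes were filtered with filterByExpr by group, leaving 16678. One edgeR 4.0.16 quasi-likelihood fit (R 4.3.3, TMM, a mean per group, all 18 libraries) served 12 comparisons, with Benjamini-Hochberg adjustment over all genes tested and a threshold of 0.05. SE was obtained from the log2 fold change and the F statistic, as their quotient after taking the root of F. Correlations used log2 CPM with a prior count of 2. Alternatives were DESeq2 1.42.0, its size factors, no filter, the libraries of a comparison alone, a replicate block, and leaving out each library. All 18 columns of values were used.

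The genes and lists were chosen with earlier results of these data known. Named beyond the 9 genes are list genes past 0.05 in KD against SCR, the 2 per list and direction with the largest log2 fold change with LPS in SCR, the 3 genes most correlated with TRAFD1 and with TRAF1 and the 1 for each other gene, cell type markers, and TNF, IL1B and NFKBIA. BIRC2 was named after its value was seen. Some of the markers examined are not reported here.

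Whether replicate numbers pair libraries was checked by correlating same-numbered libraries' deviations from their group means. Each exceeded 0.1 only for WT and SCR with LPS (0.163 to 0.261), where the block is given beside the result.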

Additional observations from a re-analysis of the deposited data

How the results depend on the processing

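Across 12 comparisons, calls of the 9 genes were few enough that 1 gene moves a count by 1.5 times. The share of all genes called is given for some of the alternative fits only. Without such a share, a count has no background and is not a result about the 9 genes. For KD against SCR without LPS, 1 gene was called, against 2 by DESeq2 on all libraries and 0 by edgeR on the 6 libraries alone, where TRAFD1 stood at -1.41 (adjusted p = 0.0847). With 1 library left out the count ran from 0 to 1 and TRAFD1 from -1.72 to -1.20. For KD against SCR with LPS, 0 were called, against 2 (TRAFD1 and TANK) without the filter on low counts and 2 by DESeq2 on the 6 libraries alone. TRAFD1 stood there at -0.66 (adjusted p = 0.0275) and -0.65 (adjusted p = 0.0158). For KD against WT without LPS the count was 1, and 2 by DESeq2 on all libraries or in a range of 1 to 2 with 1 library left out. TRAF3 in that comparison changed sign with the 6 libraries alone, to 0.0191 (edgeR) and 0.000869 (DESeq2). For KD against WT with LPS the count was 1, and 2 by either tool on the 6 libraries alone, and ran from 0 to 2 with 1 library left out. TRAF4 in SCR against WT with LPS turned to 0.000276 without the filter. The difference in LPS response of KD and WT called 0 genes, 1 without the filter and 0 to 3 with 1 library left out, and that of SCR and WT called 1 by DESeq2 on its libraries alone, TRAF3 (-0.48, adjusted p = 0.0291).

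The replicate block was fitted within each stimulation state, on 9 libraries. Apart from WT and SCR with LPS, correlations of same-numbered libraries ran from -0.0875 to 0.304 and did not pair the libraries. The labels do not pair them in any comparison, so the block uses a number only. The block called 2 genes in KD against SCR with LPS (TRAFD1 at -0.65, adjusted p = 0.0115, and TANK at 0.85, adjusted p = 0.00122, with 7.35% of the genes called), 3 in KD against WT with LPS (TANK, TRAF6 and TRAF3IP2, with 25.1% of the genes called) and 1 in SCR against WT with LPS. It moved no other count of the 9 genes among the 6 comparisons within a state.

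Leaving out 1 library turned the sign of differences that were not called. In KD against SCR without LPS the ranges were -0.164 to 0.354 (TANK), -0.284 to 0.459 (TRAF1), -0.0252 to 0.275 (TRAF3IP2) and -0.231 to 0.157 (TRAF5). With LPS they were -0.0504 to 0.107 (TRAF1) and -0.269 to 0.141 (TRAF6). In KD against WT they were -0.0998 to 0.0658 (TRAF3), -0.209 to 0.11 (TRAF3IP2) and -0.412 to 0.0192 (TRAF6) without LPS and -0.113 to 0.0892 (TRAF2) with LPS. In SCR against WT they were -0.0352 to 0.708 (TRAF1) and -0.366 to 0.0216 (TRAF3IP2) without LPS, and -0.0148 to 0.399 (TANK), -0.0943 to 0.0596 (TRAF4) and -0.491 to 0.405 (TRAF5) with LPS. For LPS itself they were -0.333 to 0.702 (TRAF5 in WT), -0.122 to 0.0804 (TRAF6 in SCR), -0.232 to 0.0614 (TRAFD1 in SCR) and -0.0221 to 0.487 (TRAF6 in KD). The cause of these changes was not tested. Log2 fold changes called in the fit to all 18 libraries did not change sign in any alternative run. TRAF1 and TRAF5, at about 1 CPM without LPS, had the widest errors, and DESeq2 gave no adjusted p for one of the 9 genes 11 times.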
